A study of Oreochromis mossambicus with 12 samples.

Results

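Antigen presentation is the display of peptides on major histocompatibility complex (MHC) molecules, where T cells read them. Class I molecules are loaded in the endoplasmic reticulum with peptides that a transporter brings in from the cytosol. Class II molecules are loaded in endosomes with peptides of engulfed material, and in mammals they are made mainly by dendritic cells, macrophages and B cells. The 5 genes described here were chosen by symbol from the deposited table, which holds 28921 gene symbols: tap1 and tapbpl of the class I route, cd74 and ciita of the class II route, and cd83. They are covered by 11 of the table's 58070 transcripts, and transcript values were summed per symbol.

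The cells were head-kidney leukocytes of the tilapia Oreochromis mossambicus, kept overnight in primary culture on collagen and then exposed for 12 h. The head kidney is the blood-forming organ of bony fish. Groups of 3 libraries each received heat-killed Streptococcus agalactiae (1 bacterium per cell) together with 1000 μM sodium nitrite (co-treatment), the bacteria alone, the nitrite alone, or PBS. The labels give no strain, age or sex of the fish, and leave unsaid if replicate libraries are separate animals or cultures. The p-values therefore rest on the scatter among these libraries, which could be technical. Of 4 leukocyte genes chosen to check the cell label after the table had been opened, only lcp1 was among its symbols. It was at 528 FPKM or more in all 12 libraries, and the myeloid factor gene spi1 at 379 FPKM or more.

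Levels are FPKM, fragment counts divided by transcript length and by library size, so genes can be compared per length. They hold no counts, and the absolute depth is unknown. Steps between low values gave the 12 libraries an approximate relative depth of 1.00 (PBS replicate 1) to 1.40. PBS replicate 1 stood apart in composition, with 4.94% of its summed FPKM in ribosomal protein genes, where the other 11 libraries had 8.93% to 17.3%. In bulk RNA, fewer cells of a type and less RNA per cell cannot be told apart.

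The class I genes rose with the bacteria. tap1 encodes a subunit of the transporter that moves cytosolic peptides into the endoplasmic reticulum. It was at 64.2, 73.8 and 95.9 FPKM in the bacteria libraries, against 28.6, 25.7 and 33.0 FPKM in the PBS libraries. With co-treatment it was at 67.4, 65.4 and 113.6 FPKM, against 19.7, 27.3 and 36.2 FPKM with nitrite alone. Every library that received bacteria was above every library that did not. How many of all tested genes separate in this way was not counted. Such a lack of overlap, for tap1 and for the genes and sums below, is therefore a description only. The log2 change, on the scale log2(FPKM + 1), was 1.38 ± 0.27 for bacteria against PBS (SE of the fit; adjusted p = 0.00301 in limma's test), 1.43 ± 0.27 for co-treatment against PBS (adjusted p = 0.00227) and 1.53 ± 0.27 for co-treatment against nitrite (adjusted p = 0.00178). The first pair of these comparisons shares the PBS libraries, while the last shares no library with bacteria against PBS. It is still no independent repeat, because same-numbered libraries of different groups varied together and all groups were in 1 fit.

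tapbpl encodes TAPBPR, a relative of tapasin that edits the peptides bound to class I molecules in mammals. It was at 12.0, 13.1 and 16.1 FPKM in the bacteria libraries and at 5.26, 4.63 and 6.31 FPKM in the PBS libraries. Co-treated libraries had 11.9, 10.9 and 17.97 FPKM, and nitrite libraries 3.69, 4.76 and 6.33 FPKM. The groups with and without bacteria did not overlap, as for tap1, at a level per length several times lower. The log2 changes were 1.20 ± 0.23 for bacteria against PBS (adjusted p = 0.00259), 1.17 ± 0.23 for co-treatment against PBS (adjusted p = 0.00277) and 1.29 ± 0.23 for co-treatment against nitrite (adjusted p = 0.00178). Both class I genes followed each other closely over the 12 libraries (Pearson r of log2 values 0.997, a description over libraries that share their groups). Replicate 3 was the highest library of its group for both genes in all 4 groups.

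Of the class II genes, cd74 was lower with the bacteria and ciita showed no change past the threshold. cd74 encodes the invariant chain, which fills the groove of new class II molecules and escorts them to endosomes. It was the most abundant of the 5 genes, at rank 106 of 12423 tested genes by mean FPKM. Its level was 432, 571 and 538 FPKM in the bacteria libraries, against 795, 1420 and 783 FPKM in the PBS libraries. Co-treated libraries had 398, 487 and 541 FPKM, against 1371, 1631 and 720 FPKM with nitrite alone. All 6 libraries with bacteria were below all 6 without, yet the libraries without bacteria spread widely, with replicate 2 the highest and replicate 3 the lowest in each of those groups.

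For cd74 the log2 change was -1.31 ± 0.34 in co-treatment against nitrite (adjusted p = 0.0125) and -1.02 ± 0.34 in co-treatment against PBS (adjusted p = 0.0328), both past the threshold of 0.05. In bacteria against PBS it was -0.91 ± 0.34 and did not pass (adjusted p = 0.0546), but it did with the replicate number as a block (adjusted p = 0.0251, with 38.6% of all genes called lower) and after quantile normalization (log2 -1.01, adjusted p = 0.0403, with 14.3% called lower). It was smaller, and also not called, after median-ratio scaling (log2 -0.55, adjusted p = 0.240) and without PBS replicate 2 (-0.63, adjusted p = 0.179). After median-ratio scaling, a correction for library composition, cd74 was at -0.98 in co-treatment against nitrite (adjusted p = 0.0487, with 13.2% of all genes called lower), while the call in co-treatment against PBS was lost (log2 -0.66, adjusted p = 0.154). In order of mean level the groups ran nitrite (1241 ± 469 FPKM, SD, n = 3 each), PBS (999 ± 365), bacteria (514 ± 72.5) and co-treatment (475 ± 72.2). Nitrite and PBS, and likewise bacteria and co-treatment, differed by less than the spread of their libraries. Leaving out PBS replicate 2, or any co-treatment library, also ended the call against PBS (adjusted p = 0.115, and 0.051 to 0.11), and leaving out nitrite replicate 2 or co-treatment replicate 1 ended the call against nitrite (adjusted p = 0.0561 and 0.051).

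ciita encodes the transactivator that switches on class II genes and cd74 in mammals. It was at 3.39, 5.06 and 4.52 FPKM in the bacteria libraries and 5.04, 4.74 and 2.54 FPKM in the PBS libraries, so the groups overlapped. Co-treated libraries had 3.07, 4.07 and 4.69 FPKM, and nitrite libraries 5.02, 6.52 and 2.74 FPKM. The log2 change was 0.09 ± 0.29 for bacteria against PBS (adjusted p = 0.845), with a 95% interval of -0.56 to 0.73, and -0.18 ± 0.29 for co-treatment against nitrite (adjusted p = 0.671; interval -0.82 to 0.47). Intervals of that width leave room for changes of moderate size in either direction. As with cd74, replicate 3 was the lowest library in the nitrite and PBS groups; with bacteria replicate 1 was the lowest for both genes.

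cd83 had the steepest response of the 5 genes. It encodes a surface protein that marks mature dendritic cells in mammals, where it also slows the turnover of class II molecules. It was at 379, 457 and 452 FPKM in the bacteria libraries, against 35.3, 25.0 and 30.2 FPKM in the PBS libraries. Co-treated libraries were at 405, 419 and 461 FPKM, against 26.0, 33.5 and 44.1 FPKM with nitrite alone. The gap between the groups was far wider than the spread inside them. The log2 change was 3.80 ± 0.21 for bacteria against PBS (adjusted p = 8.18e-07), 3.80 ± 0.21 for co-treatment against PBS (adjusted p = 8.71e-07) and 3.62 ± 0.21 for co-treatment against nitrite (adjusted p = 1.31e-06).

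**Figure D1:**
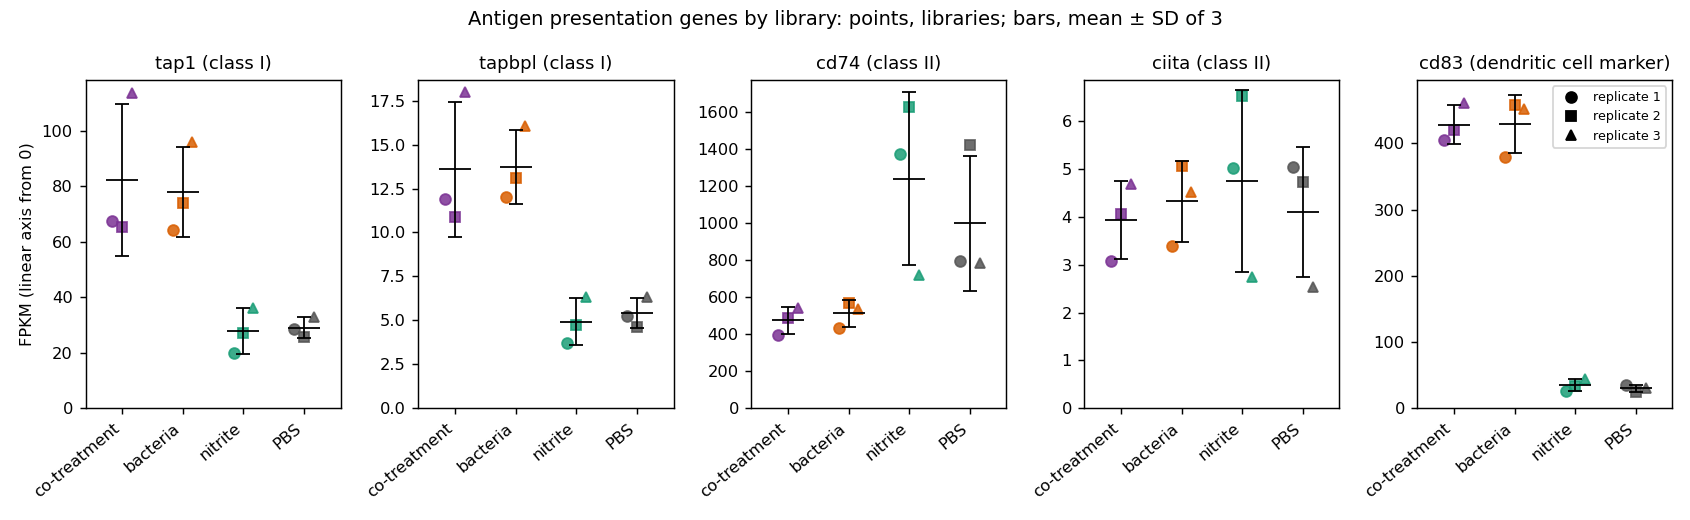
FPKM of each gene (y axes, linear from 0) in the 4 groups (x axes), with a point per library, its shape giving the replicate number, and the mean ± SD of 3 libraries. tap1, tapbpl and cd83 sit higher in both groups with bacteria, cd74 sits lower, and the ciita groups overlap.

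All 5 genes passed the filter on low values (a mean of 1 FPKM or more), as did 12423 genes in all. With bacteria against PBS 3 of the 5 rose and 0 fell, where 10.7% of all tested genes were called higher and 26.3% lower. With co-treatment against PBS 3 rose and 1 fell (background 11.4% higher, 27.7% lower), and with co-treatment against nitrite 3 rose and 1 fell (10.6% and 23.3%). The median log2 change of the 5 was 1.20, 1.17 and 1.29 in these comparisons, against -0.29, -0.29 and -0.32 over all tested genes. The 5 genes, and the lists below, were chosen with earlier results of these data known. Their counts and medians beside those of all genes are therefore a description only. Median-ratio scaling moved the median over all genes in bacteria against PBS to 0.01 and kept the calls of tap1 (log2 1.73), tapbpl (1.51) and cd83 (4.15). With it 16.8% of all genes were called higher and 14% lower, against 17.8% and 15.7% in co-treatment against PBS and 16.2% and 13.2% in co-treatment against nitrite.

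The class I and class II genes therefore stood at different distances from each other in the groups, which is given here as a description with no test. The ratio of cd74 to tap1, per length, was 5.91, 7.44 and 4.76 in the co-treated libraries and 6.74, 7.74 and 5.62 in the bacteria libraries, against 69.5, 59.8 and 19.9 with nitrite and 27.8, 55.4 and 23.7 with PBS. No library with bacteria reached the lowest ratio without them. The ratio of cd74 to ciita was likewise lower with bacteria (113 to 128) and co-treatment (115 to 130) than with nitrite (250 to 273) and PBS (158 to 308), so within class II the invariant chain and its transactivator did not keep 1 proportion. The mean log2 change of tap1 and tapbpl minus that of cd74 and ciita was 1.70 for bacteria against PBS, 1.82 for co-treatment against PBS and 2.15 for co-treatment against nitrite.

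**Figure D2:**
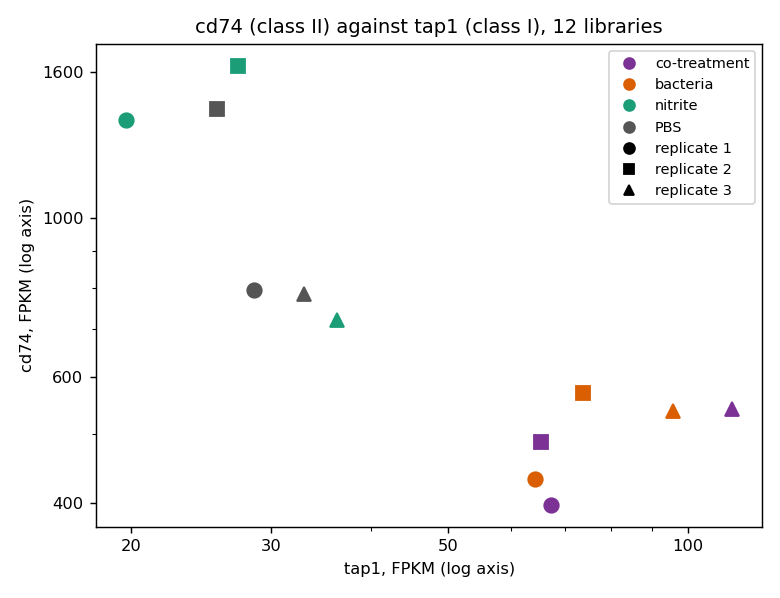
cd74 (y axis) against tap1 (x axis), both in FPKM on log axes, for the 12 libraries, with colours for the groups and shapes for replicate numbers. The 6 libraries with bacteria lie at the lower right and the 6 without at the upper left.

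Nitrite moved none of the 5 genes past the threshold. Against PBS the log2 changes were -0.10 ± 0.27 for tap1, -0.13 ± 0.23 for tapbpl, 0.29 ± 0.34 for cd74, 0.15 ± 0.29 for ciita and 0.17 ± 0.21 for cd83, each with adjusted p = 1, and limma called 0% of all tested genes (74 had an unadjusted p under 0.05, none of them among the 5). Co-treatment against bacteria gave 0.047 ± 0.27, -0.035 ± 0.23, -0.11 ± 0.34, -0.11 ± 0.29 and -0.0011 ± 0.21 in the same order, with 0.00805% of all genes called (1 gene, and 156 at an unadjusted p under 0.05, none of them among the 5). For cd83, the most tightly measured, the 95% interval of that difference was -0.46 to 0.46. The interaction, the change with bacteria in the presence of nitrite minus that in its absence, was 0.15 ± 0.38 for tap1 and -0.40 ± 0.48 for cd74, and passed for 0 of the 5 genes (adjusted p = 1 each), with 0.00805% of all genes called. The counts at an unadjusted p under 0.05 are below the share of 0.05 that unpaired libraries without any change would give. This fit ignored the pairing by replicate number, so its SE may be too large for these comparisons. With the replicate block the SE in nitrite against PBS was 0.16 for tap1 and 0.14 for tapbpl. None of the 5 genes passed with the block, where 0%, 0.0322% and 0.00805% of all genes were called in the same order of comparisons.

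**Figure D3:**
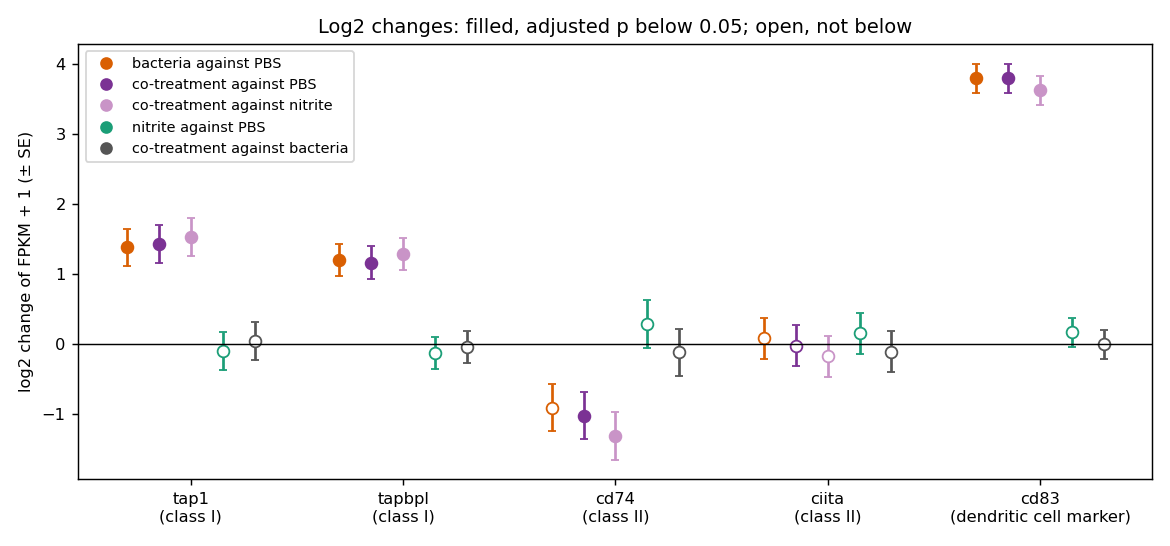
Log2 change of FPKM + 1 (y axis, ± SE) of the 5 genes (x axis) in 5 comparisons, filled where the adjusted p was below 0.05. tap1, tapbpl and cd83 are filled and positive in the 3 comparisons that differ by bacteria, cd74 is filled and negative in co-treatment against PBS and against nitrite, and all symbols of nitrite against PBS and of co-treatment against bacteria are open.

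The 4 transcripts of tap1, listed as rna30091 to rna30094, did not all change past the threshold. How the authors' tool divided fragments among overlapping transcripts is not given, so these values are less certain than the sum. rna30092 was at 20.9, 25.8 and 35.0 FPKM with bacteria, against 6.91, 4.70 and 8.55 FPKM with PBS. rna30093 was at 32.4, 35.0 and 43.9 FPKM with bacteria, against 3.57, 13.4 and 12.0 FPKM with PBS. Neither transcript had overlapping groups. Tested 1 by 1 in a fit over 15801 transcripts, added after the table had been opened, rna30092 changed by 1.87 ± 0.35 (adjusted p = 0.00321) and rna30093 by 2.00 ± 0.44 (adjusted p = 0.00828), where 9.22% of transcripts were called higher.

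rna30091 was at 10.9, 11.7 and 17.0 FPKM with bacteria and 5.29, 6.44 and 12.5 FPKM with PBS, and its change of 0.70 ± 0.36 did not pass (adjusted p = 0.179). In co-treatment against nitrite it was at 8.07, 9.99 and 20.6 FPKM against 9.97, 13.1 and 12.3 FPKM (log2 0.02 ± 0.36, adjusted p = 0.979). Its share of the summed tap1 level was 15.7% with co-treatment, 16.9% with bacteria, 42.5% with nitrite and 27.8% with PBS. rna30094 was listed at 12.8 FPKM in PBS replicate 1, 44.8% of that library's tap1, and at 0 to 1.31 FPKM in the other 11 libraries. A test of unequal change among the transcripts of a gene (limma's diffSplice, added after the table had been opened) called tap1 in bacteria against PBS (adjusted p = 0.0243, 3.68% of 2688 genes called) and co-treatment against PBS (adjusted p = 0.00530, 4.09% called), and not in co-treatment against nitrite (adjusted p = 0.0844, 2.83% called). In both calls rna30094 alone differed from the other transcripts (log2 difference -2.74, adjusted p = 0.0107, and -3.17, adjusted p = 0.00231). The rest had an adjusted p of 0.122 or more. Without PBS replicate 1 the adjusted p of the gene was 0.0817, 0.0134 and 0.00119 in the same order, so the first call rested on that library and the third was lost with it. Without it rna30092 (1.74, adjusted p = 0.0297) and rna30094 (-1.85, adjusted p = 0.0204) differed in co-treatment against PBS. The same transcripts differed in co-treatment against nitrite (1.88, adjusted p = 0.00599, and -1.62, adjusted p = 0.0178). rna30094 was at 1.10 and 0 FPKM in the remaining PBS libraries and at 0 FPKM in every co-treated library. Its differences are therefore those of a transcript near the floor, set against transcripts at higher levels. It passed the filter on low values, a mean of 1 FPKM over the 12 libraries, only through PBS replicate 1. The fits without that library kept it among the tested transcripts, so their p-values for the gene still include it.

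**Figure D4:**
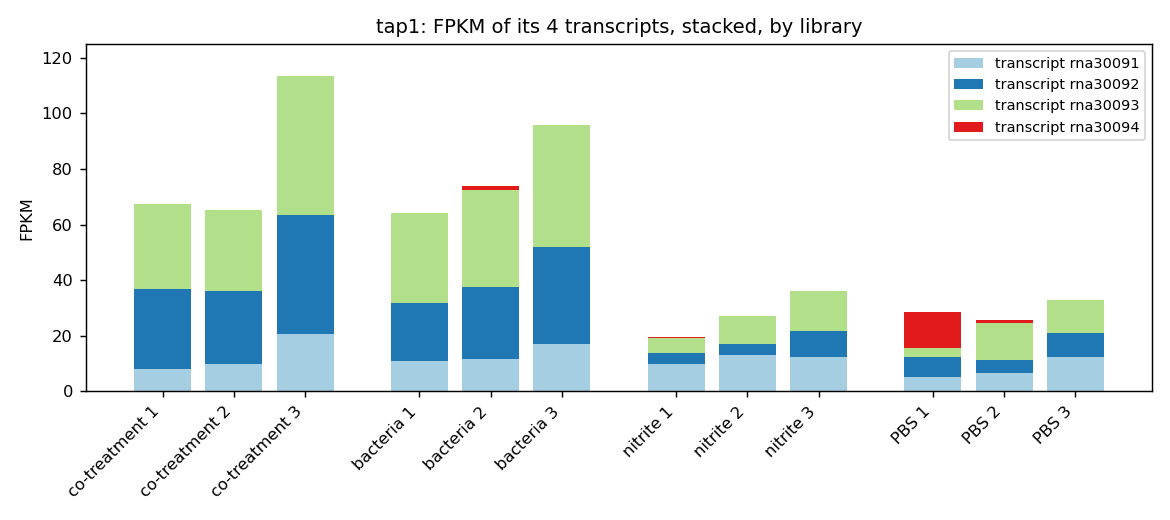
FPKM of the 4 tap1 transcripts (y axis), stacked, in each of the 12 libraries (x axis). rna30092 and rna30093 make up most of the bars with bacteria, and rna30094 is prominent in PBS replicate 1 alone.

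ciita had 4 transcripts, of which rna10392 held most of the level in all libraries but nitrite replicate 1. It was at 3.02, 4.53 and 4.09 FPKM with bacteria and 3.97, 3.44 and 1.71 FPKM with PBS (log2 0.31 ± 0.31, adjusted p = 0.503). The lesser transcript rna10390 was at 0.370, 0.530 and 0.260 FPKM with bacteria and 1.07, 1.30 and 0.830 FPKM with PBS. Those groups did not overlap. With co-treatment it was at 0.35, 0.36 and 0.68 FPKM and with nitrite at 2.6, 1.07 and 0.51 FPKM, which overlapped, and in nitrite replicate 1 it held 51.8% of the ciita level. It stayed under the filter on low values and was not tested. rna10391 and rna10393 were listed at 0 in all libraries but bacteria replicate 3 and co-treatment replicates 2 and 3, where they stayed at or below 0.610 FPKM.

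Among the 4791 symbols other than LOC identifiers with a mean of at least 5 FPKM, tapbpl was the gene most like tap1 over the 12 libraries, and tap1 the most like tapbpl (r = 0.997). After it came syngr2 (r = 0.986) and xaf1 (r = 0.977) for tap1, and syngr2 (r = 0.984) and sucla2 (r = 0.982) for tapbpl. The pattern of cd83 was closest to snx10 (r = 0.997), suox (r = 0.995) and crispld2 (r = 0.994), and that of cd74 to rreb1 (r = 0.978), fam13a (r = 0.975) and cebpd (r = 0.975). The closest genes to ciita reached lower values, with cpq at 0.815, snx21 at 0.795 and dpp7 at 0.769. These r describe libraries that share groups and replicate numbers, and the nearest of 4791 genes are high by selection.

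Other genes of the routes were taken from lists of known components. Of 24 class I symbols 7 were in the table and 6 were tested; with bacteria against PBS 2 rose and 2 fell, where 10.7% of all genes were called higher and 26.3% lower (median log2 0.18, against -0.29 over all genes). Without PBS replicate 1 it was 1 and 2 with a median of -0.14, and after median-ratio scaling 2 and 0 (over all genes 16.8% higher and 14% lower). The risers were the subunits of the PA28 activator, which alters the peptides that proteasomes release. psme1 was at 242, 290 and 323 FPKM with bacteria, against 77.9, 141 and 180 FPKM with PBS (log2 1.17 ± 0.33, adjusted p = 0.0171). psme2 changed by 0.80 ± 0.28 (adjusted p = 0.0468). The psme1 call held in 18 of 20 alternatives, and was lost after quantile normalization and without bacteria replicate 3. The psme2 call held in 11 of 20, and was lost, among others, without PBS replicate 1 or 2 and without bacteria replicate 2 or 3.

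lnpep, an aminopeptidase used in cross-presentation in mammals, fell by 1.38 ± 0.35 on the log2 scale (adjusted p = 0.0117; log2 -0.88 without PBS replicate 1, and not called after median-ratio scaling, adjusted p = 0.0611). The folding enzyme gene pdia3 was at -0.50 ± 0.18 (adjusted p = 0.0473), a call that held in 7 of 20 alternatives. The chaperone gene canx (0.31 ± 0.32) did not pass. nlrc5, the class I counterpart of ciita in mammals, was at 6.35, 17.2 and 23.5 FPKM with bacteria and 9.90, 14.8 and 16.2 FPKM with PBS, overlapping groups with a log2 change of 0.05 ± 0.57 (adjusted p = 0.958). The immunoproteasome gene psmb8 was listed at 0 in all 12 libraries.

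Of 19 class II symbols 10 were in the table and 8 were tested, and 0 rose or fell with bacteria against PBS (median -0.14, and 0.19 after median-ratio scaling). Over all genes 10.7% were called higher and 26.3% lower. At an unadjusted p under 0.05 there were 3 lower genes of the 8 (over all genes 5797 of 12423 had such a p, in either direction), and with the replicate block 3 of the 8 passed, near the 38.6% of all genes called lower in that fit. The genes of the factors that bind class II promoters together with ciita gave rfx5 at 0.01 ± 0.26, rfxank at -0.16 ± 0.25, rfxap at -0.62 ± 0.25 (adjusted p = 0.0706) and nfyb at -0.33 ± 0.13 (adjusted p = 0.0750). PBS replicate 1 had 3.63 FPKM of rfx5, against 8.99 and 8.77 FPKM in the other PBS libraries. Without that library rfx5 was at -0.36 (adjusted p = 0.0595) and nfyb at -0.37 (adjusted p = 0.0350). rfx5 was then called lower in co-treatment against PBS and against nitrite (adjusted p = 0.0418 and 0.0238). In the main fit nfyb was called lower in these same comparisons (27.7% and 23.3% of all genes). Its calls held in 9 and 18 of 20 alternatives. The endosomal protease gene lgmn was at 190, 350 and 260 FPKM with bacteria and 574, 555 and 372 FPKM with PBS, without overlap, and at -0.92 ± 0.35 it missed the threshold (adjusted p = 0.0578). With co-treatment it was at 238, 510 and 321 FPKM, which overlapped PBS, and the change against PBS was not called (-0.53 ± 0.35, adjusted p = 0.249), where cd74 was called. The protease gene ctsh was at 0.40 ± 0.31, and the thiol reductase gene ifi30 was listed at 0 in all 12 libraries.

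Of 16 symbols of costimulation and dendritic cell maturation 7 were in the table and 5 were tested, of which 2 rose and 2 fell with bacteria against PBS, beside 10.7% of all genes called higher and 26.3% lower. The median of the list was -0.30, close to the -0.29 of all genes. relb, an NF-kB subunit needed for dendritic cell maturation in mice, was at 72.3, 82.0 and 75.2 FPKM with bacteria, against 31.2, 37.1 and 33.5 FPKM with PBS (log2 1.15 ± 0.14, adjusted p = 0.000192). Its partner nfkb2 rose by 2.53 ± 0.78 (adjusted p = 0.0273), and by 1.25 without PBS replicate 1, where it was at 3.26 FPKM. The call of nfkb2 was lost in 5 of 20 alternatives, among them without any 1 of the bacteria libraries. The B7 family gene cd276 fell to 10.6, 18.5 and 19.6 FPKM with bacteria, against 65.0, 100.5 and 69.8 FPKM with PBS (log2 -2.22 ± 0.33, adjusted p = 0.000614), a call lost with the highest transcript only, and the actin bundler gene fscn1, a marker of mature dendritic cells in mammals, fell by 1.96 ± 0.38 (adjusted p = 0.00264). cd86, a ligand of CD28, was at 0.05 to 0.23 FPKM with bacteria and 0.450 to 3.14 FPKM with PBS, and was not tested. The genes of this list thus moved in both directions where cd83 rose.

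Of 21 regulators of presentation genes 12 were in the table and 11 were tested; 5 rose and 0 fell with bacteria against PBS, beside 10.7% of all genes called higher and 26.3% lower (median 0.58, against -0.29 over all genes). socs1, an inhibitor of interferon signalling, was at 39.4, 52.7 and 96.3 FPKM with bacteria, against 4.39, 9.10 and 11.4 FPKM with PBS (log2 2.76 ± 0.50, adjusted p = 0.00180). The NF-kB genes rel (0.81 ± 0.16, adjusted p = 0.00282) and nfkb1 (1.03 ± 0.24, adjusted p = 0.00650) rose as well. The kinase gene jak1 (0.62 ± 0.17, adjusted p = 0.0180) and irf9, a partner in interferon signalling (0.58 ± 0.15, adjusted p = 0.0122), were the other risers. The calls of socs1, rel and nfkb1 held in 20 of 20 alternatives, that of irf9 in 19 (lost without bacteria replicate 2) and that of jak1 in 17 (lost after quantile normalization and without PBS replicate 2 or bacteria replicate 1). irf8, a factor of dendritic cell and macrophage development, did not pass (0.86 ± 0.48, adjusted p = 0.182).

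**Figure D5:**
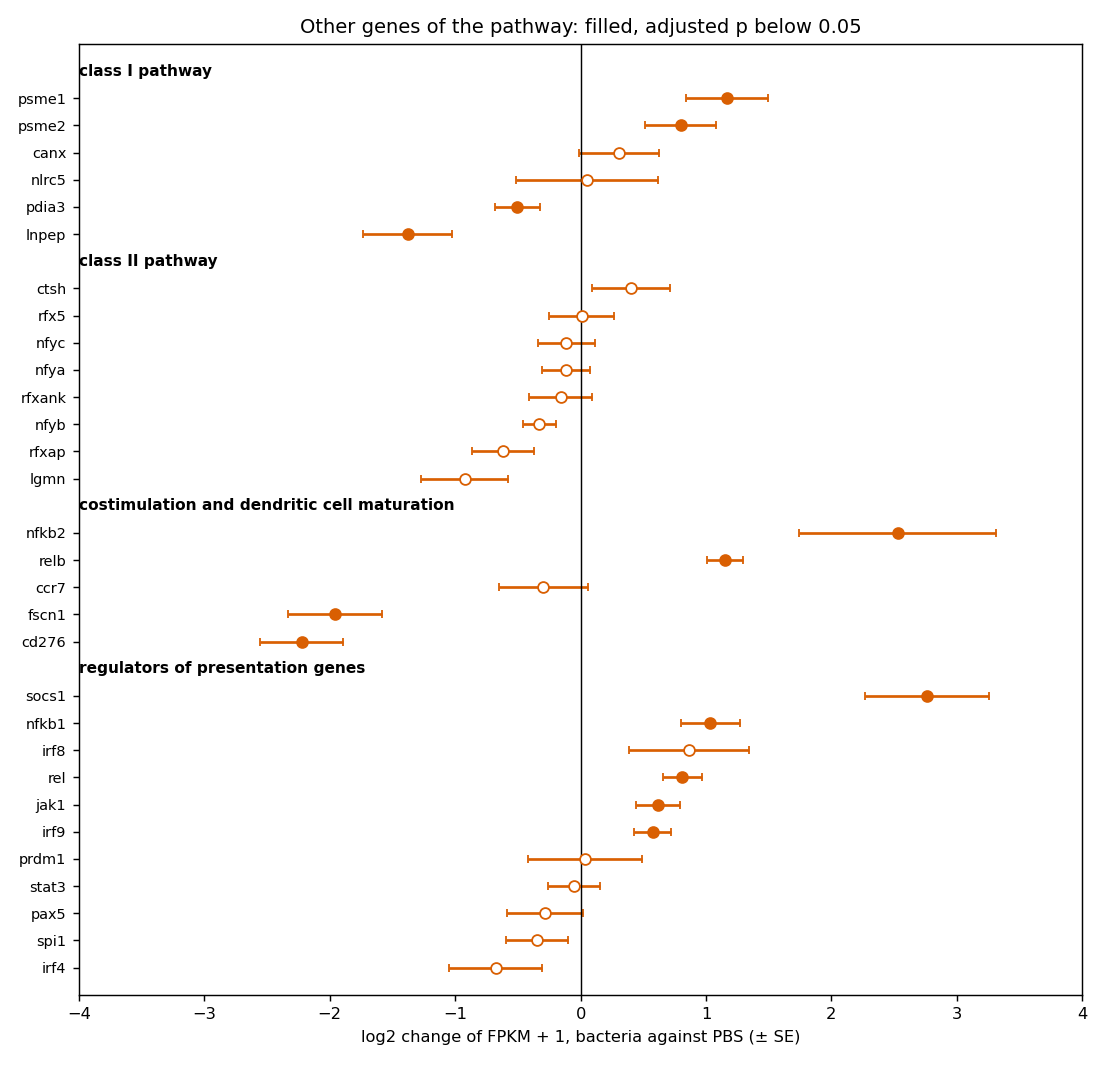
Log2 change of FPKM + 1 with bacteria against PBS (x axis, ± SE) for the tested genes of the 4 lists (y axis), filled where the adjusted p was below 0.05. The regulators lean to the right, the class II list has open symbols only, and the other lists have filled symbols on both sides.

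Markers of several cell types moved beside these results. In bacteria against PBS 10.7% of all tested genes were called higher and 26.3% lower, the background to the counts below. The summed FPKM of 5 B cell markers in the table (of 8 listed) was 32.9 to 49.0 with co-treatment and 28.0 to 40.2 with bacteria, against 117 to 167 with nitrite and 117 to 208 with PBS, groups that do not overlap. Most of that sum was btk and swap70, though less of it in the groups with bacteria. btk averaged 24.6 FPKM with bacteria and 112 FPKM with PBS, and cd79a, cd79b and pax5 overlapped between those groups. In bacteria against PBS 2 of the 5 fell, btk (-2.13 ± 0.22) and swap70 (-2.55 ± 0.32), while cd79a (-0.72 ± 0.34), cd79b (-0.75 ± 0.42) and pax5 (-0.29 ± 0.30) did not pass. The summed FPKM of 4 macrophage markers (of 6 listed) was 493 to 638 with co-treatment and 584 to 709 with bacteria, against 705 to 855 with nitrite and 738 to 1327 with PBS, where the highest sum was that of PBS replicate 1 and the next 812. Most of the sum was spi1, which did not pass in bacteria against PBS (-0.35 ± 0.25, adjusted p = 0.297). marco was lower (-0.83 ± 0.27, adjusted p = 0.0317), a call that held in 14 of 20 alternatives and was lost, among others, without PBS replicate 1 or 2 and without bacteria replicate 2 or 3. csf1r fell to 2.60, 3.40 and 1.12 FPKM with bacteria, against 71.2, 57.8 and 19.95 FPKM with PBS, and mrc1 stayed at or below 0.0600 FPKM in all libraries. Of 6 dendritic cell markers only zbtb46 and batf3 were in the table. zbtb46 rose to 3.9, 3.9 and 6.01 FPKM with bacteria, against 1.20, 1.75 and 1.96 FPKM with PBS (1.08 ± 0.23, adjusted p = 0.00475), and batf3 was at or below 0.180 FPKM throughout. Of 4 T cell markers in the table (of 9 listed) 1 rose, and their sum was 8.76 to 10.9 FPKM with bacteria and 7.26 to 13.01 FPKM with PBS, overlapping groups. Markers of endothelium, thrombocytes, fibroblasts and neutrophils also moved. Of 4 endothelial markers 2 were tested, of which 1 rose and 1 fell in bacteria against PBS. flt1 averaged 57.4 FPKM with bacteria and 0.973 FPKM with PBS, and stab1 averaged 0.657 and 11.2 FPKM. Both calls held in 20 of 20 alternatives. kdr and cdh5 stayed at or below 0.09 FPKM. Of 7 erythroid markers only gata1 was in the table, and it was not tested. Of 4 tested thrombocyte markers 3 were lower in bacteria against PBS, itga2b, gp1bb and mpl, in calls that held in 16, 13 and 14 of 20 alternatives. All 3 calls were lost after median-ratio scaling, without PBS replicate 2 and without bacteria replicate 1 or 3. Those of gp1bb and mpl were also lost after quantile normalization and without PBS replicate 1, and that of gp1bb without the filter on low values. The remaining thrombocyte marker, fli1, leaned the other way, averaging 30.9 FPKM with bacteria and 23.5 FPKM with PBS. It was not called in the main fit, and that held in 17 of 20 alternatives. It was called higher if PBS replicate 1 was left out, if replicate number was blocked, or under median-ratio scaling, where the falls were lost. The summed level of the 4 markers was 61.1 to 79.4 FPKM with co-treatment and 54.6 to 80.9 FPKM with bacteria. Against this stood 85.1 to 198 FPKM with nitrite and 85.7 to 170 FPKM with PBS, again without overlap. Both tested fibroblast markers fell, pdgfrb (-2.44 ± 0.24) and tagln (-1.60 ± 0.35). The fibroblast marker col1a1 was listed at 0 in all libraries. Like cd74, itga2b, gp1bb and tagln were highest in replicate 2 and lowest in replicate 3 of the nitrite and PBS groups. Other markers of these lists did not share that order: mpl and fli1 were highest in PBS replicate 1, and pdgfrb in PBS replicate 3. The B cell marker pax5 had the order of cd74 too, at 0.79 to 2.57 FPKM in these groups. btk and the macrophage marker csf1r were highest in replicate 1 of both groups. Of 3 tested neutrophil markers (of 7 listed) 1 was called higher in bacteria against PBS, ncf1 (0.70 ± 0.21, adjusted p = 0.0239). That call held in 16 of 20 alternatives and was lost after quantile normalization, without PBS replicate 2 and without bacteria replicate 2 or 3. mmp9 averaged 478 FPKM with bacteria and 208 FPKM with PBS, and csf3r averaged 147 and 177 FPKM. Neither was called, but mmp9 passed after median-ratio scaling and with the replicate block. The part of cell composition in the changes of cd74, tap1, tapbpl and cd83 was not tested.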

How the data were processed

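RNA sequencing of 12 libraries in 4 groups was analysed from the 1 table deposited by the authors, with FPKM values per transcript to 2 decimals. The submitters' processing notes name Trimmomatic 0.30, HISAT2 2.0.1 and HTSeq 0.6.1. For the genome build, the annotation and the FPKM tool the answer is the same: not given in the sources used here. Among symbols, 64.9% are LOC identifiers without a name, so MHC genes under such identifiers are not analysed here.

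Transcripts were summed per symbol. Those averaging 1 FPKM or more were tested as log2(FPKM + 1) in R 4.3.3 by limma 3.58.1, with moderated variances that follow the mean level and all groups in 1 fit, and with Benjamini-Hochberg adjustment over all 12423 genes and a threshold of 0.05. The procedure was tested on simulated data in which the libraries were drawn independently. That check does not cover the correlation of same-numbered libraries described below. A fold change on this scale understates that of low genes. Errors are SE for log2 changes and SD for FPKM. Intervals are at 95%, for the estimated log2 change, from its SE and the t distribution of the fit. They rest on the spread between libraries but do not give the range of single libraries. Named genes are the 5 members, any tested gene of the fixed lists and the 3 genes most like each member; markers and genes at or near 0 were added from those lists. Members and lists were chosen with earlier results of these data known. From the regulator list 1 gene is not reported here and was left out of its counts.

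Replicate numbers come from the titles. In all 18 pairs of same-numbered libraries the deviations from the group means correlated across genes (r 0.42 to 0.92), so the numbers were taken to pair the libraries. The main fit did not use this pairing, which entered only through the replicate block among the alternatives. No pair of different numbers exceeded -0.0044. That adds no separate evidence, because deviations from a group mean cancel out within the group, so positive r for same numbers brings negative r for the others. No libraries held identical values. Alternatives were pseudocounts of 0.1 and 3, a filter at 5 FPKM or none, median-ratio scaling, quantile normalization, the replicate block, the highest transcript only, and each library left out.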

Additional observations from a re-analysis of the deposited data

How the results depend on the processing

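tap1, tapbpl and cd83 kept direction and call in the 3 comparisons that differ by bacteria under all 20 alternatives (highest adjusted p 0.0141). The count of members that fell changed through cd74 alone, and the cause was not tested. In bacteria against PBS it was 0, but 1 after quantile normalization, 1 with the replicate block, and 0 to 1 with a library left out (1 without PBS replicate 1 or nitrite replicate 3). In co-treatment against PBS it was 1, but 0 without the filter (adjusted p = 0.0768) and after median-ratio scaling, and 0 to 1 with a library left out. In co-treatment against nitrite it was 1, and 0 to 1 with a library left out. The replicate block changed no other member's call. With the block 6329 genes were called in co-treatment against nitrite, against 4206 without it, and 4 in co-treatment against bacteria, against 1 without it (5 without the filter).

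Signs turned only for changes that were not called. ciita with co-treatment against PBS (-0.02) was 0.26 after median-ratio scaling, 0.38 after quantile normalization and 0.069 with the highest transcript only. Against nitrite (-0.18) it was 0.085 and 0.24 under the first pair of these. tap1 with the highest transcript only was 0.15 in nitrite against PBS, -0.051 in co-treatment against bacteria and -0.20 in the interaction, and cd83 after median-ratio scaling was 0.0010 in co-treatment against bacteria.

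With a library left out, ciita ran -0.16 to 0.23 in bacteria against PBS, -0.090 to 0.44 in nitrite against PBS, -0.27 to 0.12 in co-treatment against PBS, -0.46 to 0.045 in co-treatment against nitrite and -0.24 to 0.026 in co-treatment against bacteria. In nitrite against PBS cd83 ran -0.016 to 0.35, tap1 -0.31 to 0.12 and tapbpl -0.29 to 0.030. In co-treatment against bacteria cd74 ran -0.23 to 0.0077, cd83 -0.089 to 0.047, tap1 -0.21 to 0.20 and tapbpl -0.24 to 0.097. In the interaction cd83 ran -0.36 to 0.015, tap1 -0.11 to 0.35 and tapbpl -0.11 to 0.26. ciita, below a mean of 5 FPKM, has no value under that filter, and the unknown depth limits how firmly its low level can be read.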
